A study of Mus musculus with 24 samples.

Results

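The mitosis, kinetochore and spindle genes described here are 50 mouse genes, taken by symbol from a list, of 55471 genes counted in mouse preimplantation embryos. The list was chosen with earlier results of these data known. Its genes cover the kinases and cyclins of mitotic entry, the Aurora kinases, the spindle checkpoint, the kinetochore, the machinery of anaphase, spindle motors, cytokinesis and chromosome structure. RNA of 10 pooled embryos of B6D2F1 parents was sequenced per library, with 4 libraries in each of 6 groups. The groups were wild type, Ttf1 knockout and Zfp622 knockout, each taken at 2 stages, the late 2-cell embryo (L2C) and the morula. B6D2F1 is a hybrid of the C57BL/6 and DBA/2 strains, and both parents of every embryo were of it. Knockout zygotes had received Cas9 protein with 3 guide RNAs against Ttf1, which encodes a terminator of ribosomal RNA transcription, or against Zfp622, which encodes a factor in the maturation of the large ribosomal subunit. Knockout embryos were thus injected embryos, pooled without a readout of editing in each embryo, and neither the meaning of the letters NC in the wild-type titles nor an injection of the wild-type zygotes is stated in the labels. Total counts ran from 10538723 to 13528954 per library at L2C and from 12690369 to 17807596 at morula.

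Mitosis begins when cyclin-dependent kinase 1 bound to a B-type cyclin drives chromosome condensation and spindle assembly. Kinetochores, built on centromeric chromatin, then attach chromosomes to microtubules, and the spindle checkpoint holds back the anaphase promoting complex until all are attached. That complex, a ubiquitin ligase, then marks securin and cyclin B for destruction, sister chromatids part and the cell divides. Cleavage divisions of the early embryo run partly on messages stored in the oocyte and, after activation of the embryonic genome at the 2-cell stage in mice, on new transcripts.

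The targeted genes were lower in their own knockout at both stages. Ttf1 stood at 94.7, 90.4, 83.3 and 94.2 CPM (counts relative to library size, scaled by TMM within a stage) in wild-type L2C embryos and at 32.8, 27.5, 38.9 and 33.5 CPM in the Ttf1 knockout, and at morula at 41.3, 44.8, 42.7 and 43.8 against 24.6, 27.2, 23.9 and 25.9 CPM. Its log2 fold changes were -1.45 ± 0.11 (SE, edgeR adjusted p = 3.21e-07) and -0.76 ± 0.10 (adjusted p = 3.47e-05). Zfp622 stood at 184, 199, 203 and 205 against 63.7, 105.5, 52.5 and 73.9 CPM at L2C and at 59.1, 50.2, 51.0 and 48.0 against 17.6, 16.98, 19.9 and 6.09 CPM at morula, with log2 fold changes of -1.42 ± 0.16 (edgeR adjusted p = 0.00243) and -1.78 ± 0.28 (adjusted p = 0.00105). No library of a knockout overlapped wild type for its target. Stage markers matched the stage labels: 8 late 2-cell genes summed to 974 to 1639.7 CPM in wild-type L2C libraries and 20.1 to 32.3 CPM in wild-type morulae, and 9 morula genes to 170.4 to 181 and 1325 to 1417 CPM. All Ttf1 knockout libraries were sequenced on lane 1 and all others on lane 2, so that lane and Ttf1 knockout cannot be told apart. Exons of 14 members overlap those of another annotated gene, 12 of them on the opposite strand (such as Cdc20, Ccna2, Kif20a, Plk1 and Fzr1), and since reads were counted without strand their counts are less certain. Each library is a separate pool of embryos, and p-values measure the spread between such pools.

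In wild-type embryos all 50 genes were expressed at both stages, over a wide range of levels. Per kilobase of exon, Ccnb1, the cyclin B1 that activates the mitotic kinase, had the highest level at L2C, 533 ± 35.3 CPM per kb (SD, n = 4), close to Pttg1 (securin, the inhibitor of separase) at 489.9 ± 45.3, and ahead of Ube2c (the ubiquitin-conjugating enzyme of the anaphase promoting complex) at 379 ± 16.4. The SDs of Ccnb1 and Pttg1 overlapped and that of Ube2c lay below both. At morula the order on the per-kilobase level was Ccnb1 (402 ± 24.1 CPM per kb), Ube2c (329 ± 17.6), Aurka (257 ± 10.8, the centrosomal Aurora kinase) and Cdc20 (207 ± 10.1, an activator of the anaphase promoting complex), with no overlap of SDs between neighbours. The lowest levels at L2C were those of Fzr1 (2.23 ± 0.411 CPM per kb, the other activator of that complex) and Ccnb3 (2.7 ± 0.868, cyclin B3), whose SDs overlapped. Ccnb3 was the lowest at morula at 0.168 ± 0.1 CPM per kb, with 4 to 20 read pairs per wild-type library.

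Between L2C and morula 20 of 50 mitotic genes of wild-type embryos rose and 21 fell. These shares were near those of all 18864 genes tested, of which 84.0% were called (46.1% lower and 37.9% higher). The median change of the members was -0.06 on the log2 scale and that of all genes -0.298, or -0.396 with DESeq2 size factors, so that a member without change sat above the median gene. With DESeq2 size factors the members' median was -0.16, and 24 fell and 17 rose. On the scale shared by all 24 libraries, Spc24, a subunit of the Ndc80 complex that links kinetochores to microtubules, stood at 13.5, 9.78, 9.62 and 13.8 CPM at L2C and at 80.7, 81.5, 102 and 90.0 CPM at morula, a log2 change of 2.92 ± 0.15. Ccnb2, cyclin B2, went from 36.7, 41.2, 36.7 and 39.7 CPM to 148, 142, 161 and 147 CPM, a log2 change of 1.95 ± 0.09. Every morula library lay above every L2C library for both genes. Mki67, which coats mitotic chromosomes, fell from 227, 237, 262 and 215 CPM to 28.0, 30.0, 33.3 and 24.8 CPM, a log2 change of -3.02 ± 0.10. Ccnb3 fell from 13.7, 11.5, 8.95 and 6.14 CPM to 0.335, 1.65, 0.995 and 0.764 CPM, a log2 change of -3.41 ± 0.32. The stages did not overlap for either gene.

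Of 5 spindle checkpoint genes 3 rose, led by Bub1b (log2 change 1.65, the BubR1 kinase-like subunit of the checkpoint complex) and Bub3 (1.59, its WD-repeat partner), and Mad2l1, which holds back Cdc20, fell (-0.41). Of 7 spindle motors and microtubule proteins 6 fell and 0 rose, from -0.47 for Ckap2 to -1.52 for Ckap5, which speeds microtubule growth. Both classes were called at shares near the 84.0% of all genes, of which 46.1% fell and 37.9% rose. Whether the direction in classes of so few genes differs from that of all genes was not tested. The Ndc80 complex split, with Spc24 and Ndc80 (0.51) higher and Spc25 (-1.97) and Nuf2 (-0.79) lower at morula. The chromosomal passenger complex, which corrects faulty attachments, split likewise: Aurkb, its kinase (0.73), and Birc5, survivin (0.56), rose, and Incenp, its scaffold (-1.16), and Cdca8, borealin (-0.85), fell. The calls of Ccnb1 (0.18), Ect2 (0.19) and Top2a (0.23) were lost with DESeq2 size factors. They were also lost without L2C library 1 or morula library 3 or 4 for Ccnb1 (adjusted p 0.0607 to 0.0983), without any of 6 libraries, all but L2C 4 and morula 2, for Ect2 (0.0529 to 0.118), and without L2C 4 or morula 1 for Top2a (0.0507 to 0.063).

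**Figure D1:**
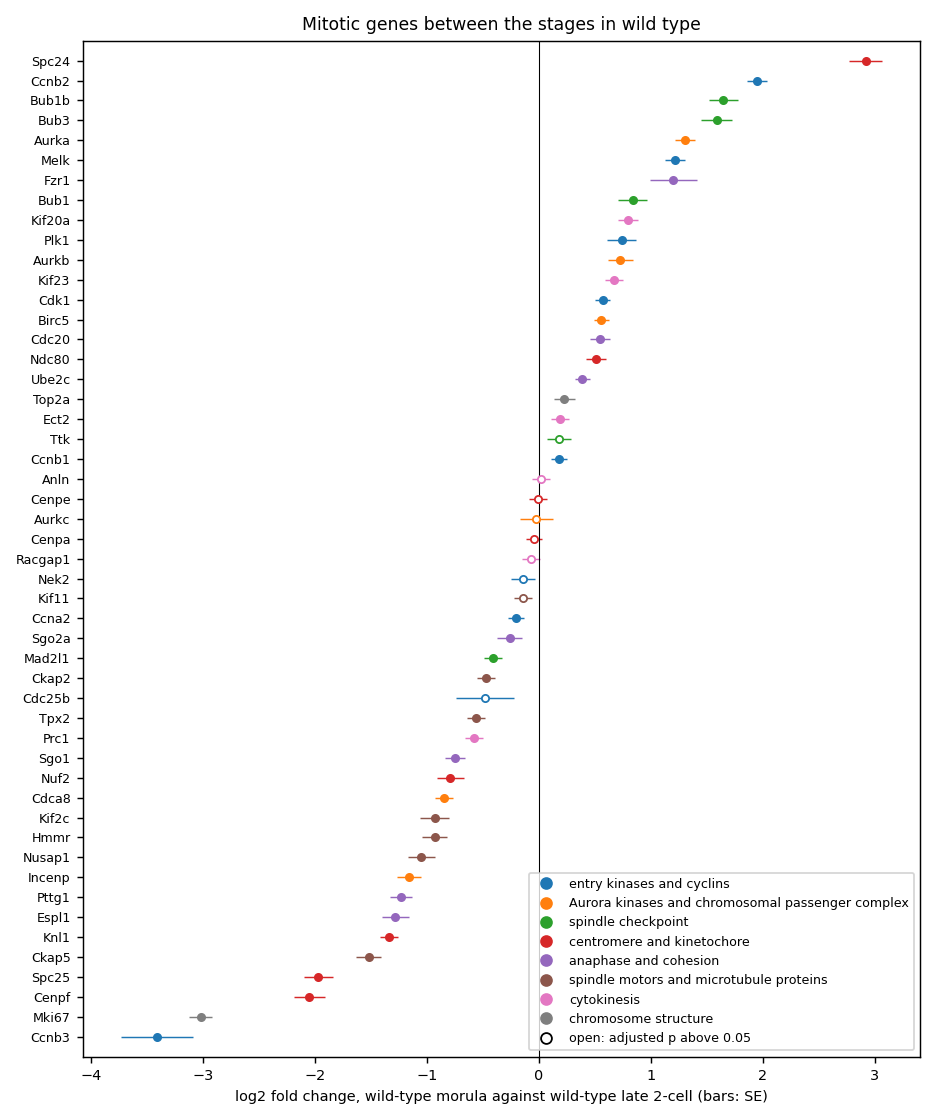
Log2 fold change of the 50 mitotic genes between wild-type L2C embryos and wild-type morulae (x axis) for each gene (y axis), with points coloured by role, bars for SE and open points above an adjusted p of 0.05. The changes run from -3.41 for Ccnb3 to 2.92 for Spc24, and spindle motors and microtubule proteins (brown) lie in the lower part.

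At L2C few of these genes were called in the knockouts, which does not show the others to be unchanged. In the Ttf1 knockout 2 of 50 fell and 0 rose, beside 1.54% of all 16770 genes called (0.799% lower and 0.739% higher). Its libraries all lay below wild type for 12 members and above for 2 (5.07% and 4.87% of all genes). The 2 that fell were Tpx2, which nucleates spindle microtubules and activates Aurka, and Pttg1. Tpx2 stood at 439, 548, 506 and 486 CPM in wild type, 379, 393, 431 and 352 CPM in the Ttf1 knockout and 475, 499.8, 465 and 474 CPM in the Zfp622 knockout. Pttg1 stood at 916, 1032, 891 and 1080.0, 808, 840.2, 712 and 774 and 895, 974, 835 and 996 CPM in the same order. For both genes every Ttf1 knockout library lay below every wild-type library, with log2 fold changes of -0.35 ± 0.08 (edgeR adjusted p = 0.0311) and -0.32 ± 0.08 (adjusted p = 0.0467). Both calls were marginal: that of Tpx2 was lost without any of 6 of the 8 libraries (Ttf1 knockout 1, 2 and 4 and wild type 2, 3 and 4, adjusted p 0.0629 to 0.116) and that of Pttg1 without any of the 8 (adjusted p 0.0506 to 0.155). Without wild-type library 4, whose alignment name carries a second index number, edgeR called 0 members. With all libraries 18 members had an unadjusted edgeR p under 0.05, beside 2676 of all 16770 genes. DESeq2, for which no share of all genes is given, called 5. Aurkb had a log2 fold change of 0.46 ± 0.12 and missed the threshold (edgeR adjusted p = 0.0547), though it was called without wild-type library 3.

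In Zfp622 knockout L2C embryos edgeR called 0 of 50 genes, where it called 0.0179% of all genes, and DESeq2 called 0. An unadjusted edgeR p under 0.05 was found for 4 members, beside 1079 of all 16770 genes. Libraries lay wholly below wild type for 1 member and wholly above for 1 (1.56% and 1.65% of all genes). Log2 fold changes ran from -0.22 for Ndc80 to 0.36 for Aurkb. Between the knockouts at L2C edgeR called 0 of 50, beside 0.0358% of all genes. There 10 members had an unadjusted edgeR p under 0.05, beside 1362 of all 16770 genes. DESeq2, for which no share of all genes is given, called 1. That gene was Spc25, lower in the Ttf1 knockout, at 280.1 ± 12.6 CPM against 352 ± 22.4 CPM (SD, n = 4). Summed over the 50 genes, members took up 1.56% of wild-type counts, 1.52% in the Ttf1 knockout and 1.57% in the Zfp622 knockout. In the same order, 8 late 2-cell marker genes summed to 974 to 1639.7, 660 to 1099 and 720 to 1495 CPM (means 1347, 938 and 976). Sums of 9 morula genes had means of 175, 165 and 173 CPM. Those of 12 blood genes were 15.0 to 24.2, 14.0 to 29.8 and 13.1 to 19.9 CPM, with Hba-a1 the highest. The part of these markers in the mitotic differences was not tested.

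At morula the mitotic genes called in either knockout were mainly lower, and a few were higher. In the Ttf1 knockout 30 of 50 fell and 5 rose, with a median log2 fold change of -0.38, beside 39.2% of all 14865 genes called (17.9% lower and 21.3% higher) and a median over all genes of 0.036. In the Zfp622 knockout 25 fell and 4 rose, with a median of -0.29, beside 29.1% of all genes called (13.5% lower and 15.6% higher) and a median over all genes of 0.027. Both comparisons use the same 4 wild-type libraries. Libraries of the Ttf1 knockout all lay below wild type for 28 members and above for 3 (17.4% and 19.1% of all genes), and those of the Zfp622 knockout for 25 and 4 (15.2% and 15.6%). Members took up 1.05% ± 0.0155 of counts in wild type (SD, n = 4), 0.944% ± 0.0574 in the Ttf1 knockout and 0.969% ± 0.0386 in the Zfp622 knockout. Without wild-type libraries 3 and 4, which carry a second index number, 23 fell and 4 rose in the Ttf1 knockout, and 17 and 2 in the Zfp622 knockout. In pooled embryos, fewer cells in mitosis and less RNA per cell cannot be told apart.

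Markers moved with these groups as well. The 9 morula genes summed to 1325 to 1417 CPM in wild-type morulae. In the Ttf1 knockout they summed to 722 to 912 CPM, and in the Zfp622 knockout to 705 to 1120.1 CPM. These sums had means of 1358, 794 and 949 CPM, of which Nanog, the highest gene, made up 620, 191 and 332 CPM. The 8 late 2-cell genes summed to 20.1 to 32.3, 33.5 to 199 and 47.0 to 127 CPM in the same order. Their highest gene in the knockouts was Gm5662, at means of 51.6 and 46.5 CPM, where the sums had means of 89.9 and 75.6 CPM. In wild type it was Tcstv3, at 9.27 CPM. Of 12 blood genes, summed at 9.84 to 13.3, 21.7 to 35.8 and 26.7 to 37.3 CPM, only 2 reached a mean of 1 CPM in each group. The lysosomal gene Cd68 was the highest, at means of 9.60, 18.2 and 23.7 CPM. Fcer1g, S100a8, S100a9 and Hbb-bt were at 0 in all 3 groups. Ptprc, Tyrobp and Hbb-bs were at 0 in wild type, but Ptprc and Tyrobp had counts in the Ttf1 knockout. Tyrobp and Hbb-bs had counts in the Zfp622 knockout. Sums of 12 cumulus and granulosa genes reached at most 3.63 CPM in a library and of 10 sperm genes at most 2.39 CPM, with Has2 and Tnp1 at 0 in all 3 groups. The part of these shifts in the mitotic changes was not tested.

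**Figure D2:**
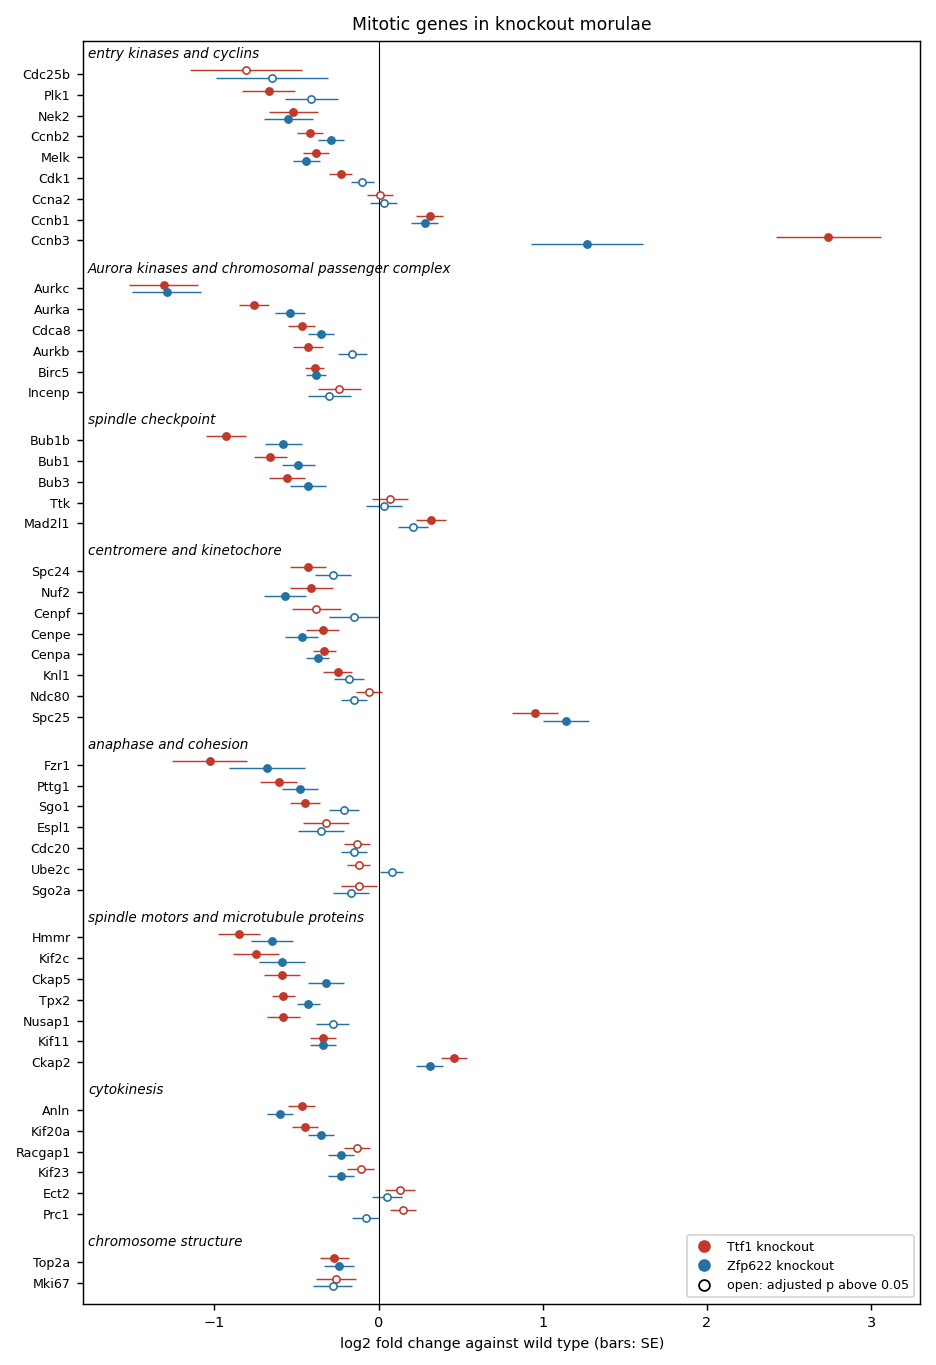
Log2 fold change against wild type at morula (x axis) for each of the 50 genes (y axis, grouped by role), in the Ttf1 knockout (red) and the Zfp622 knockout (blue), with bars for SE and open points above an adjusted p of 0.05. Most points lie left of 0, and Ccnb3 (2.74 and 1.27) and Spc25 (0.95 and 1.14) stand out to the right.

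Among the 9 entry kinases and cyclins, calls were 5 lower and 2 higher of 9 in the Ttf1 knockout, and 3 lower and 2 higher in the Zfp622 knockout. The shares called were 77.8% and 55.6%, against 39.2% and 29.1% of all genes. The 3 B-type cyclins went different ways. Ccnb2 (ENSMUSG00000032218, chr9:70407692-70421547) stood at 120.04, 117, 128 and 121 CPM in wild type, 87.5, 87.8, 99.9 and 89.1 CPM in the Ttf1 knockout and 106.3, 100.3, 102.9 and 88.9 CPM in the Zfp622 knockout. All 8 knockout libraries lay below all 4 wild-type libraries, with log2 fold changes of -0.42 ± 0.08 (edgeR adjusted p = 0.000448) and -0.29 ± 0.08 (adjusted p = 0.00915). Ccnb3 (ENSMUSG00000051592, chrX:6979652-7041619) stood at 0.272, 1.37, 0.792 and 0.626 CPM in wild type, 5.45, 5.15, 4.37 and 5.68 CPM in the Ttf1 knockout and 1.27, 2.08, 2.02 and 2.06 CPM in the Zfp622 knockout. The Ttf1 knockout lay wholly above wild type and the Zfp622 knockout overlapped it by 1 library, with log2 fold changes of 2.74 ± 0.32 (edgeR adjusted p = 1.35e-05) and 1.27 ± 0.34 (adjusted p = 0.00999). Counts of Ccnb3 were low, 4 to 20 read pairs in wild-type morulae, 65 to 87 in the Ttf1 knockout and 17 to 30 in the Zfp622 knockout.

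Ccnb1, the most abundant of the B-type cyclins per length, stood at 1621, 1592, 1775 and 1787 CPM in wild type, 1696, 2326, 2206 and 2143 CPM in the Ttf1 knockout and 2017, 2075, 2116 and 2004 CPM in the Zfp622 knockout. Only the Ttf1 knockout had a library within the wild-type range. It rose by log2 0.31 ± 0.08 (edgeR adjusted p = 0.00622) and 0.28 ± 0.08 (adjusted p = 0.0153), and the latter call was lost without wild-type morula library 2 (adjusted p 0.0522). Of the kinases, Plk1 (Polo-like kinase 1) fell in the Ttf1 knockout (-0.67, with -0.41 and no call in the Zfp622 knockout), and Nek2, a centrosomal kinase (-0.52 and -0.55), and Melk, a kinase abundant in dividing cells (-0.38 and -0.44), fell in both. Cdk1, the kinase that the cyclins activate, had -0.23 and -0.10. It was called in the Ttf1 knockout alone, a call lost without Ttf1 knockout library 1 or 2 or wild-type library 4 (adjusted p 0.052 to 0.0574). Ccna2, cyclin A2, was near 0 (0.01 and 0.03) and not called. Cdc25b, a phosphatase that activates Cdk1, had -0.81 ± 0.34 and -0.65 ± 0.34 and was not called at 22 to 128 read pairs per library.

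The 6 Aurora kinases and passenger genes gave 5 lower and 0 higher of 6 in the Ttf1 knockout, and 4 lower and 0 higher in the Zfp622 knockout. Called were thus 83.3% and 66.7%, against 39.2% and 29.1% of all genes. Aurka (ENSMUSG00000027496, chr2:172356190-172370535) stood at 656, 651, 681 and 614 CPM in wild type, 343, 335, 399 and 459.6 CPM in the Ttf1 knockout and 467, 453, 474 and 394 CPM in the Zfp622 knockout. Birc5 (ENSMUSG00000017716, chr11:117849251-117855743) stood at 442, 430.0, 446 and 450.3, 329, 323, 358 and 342 and 318, 359, 338 and 344 CPM in the same order. Neither gene had a knockout library within the wild-type range. Log2 fold changes of Aurka were -0.76 ± 0.09 (edgeR adjusted p = 1.48e-05) and -0.54 ± 0.09 (adjusted p = 0.000425), and those of Birc5 -0.39 ± 0.06 (adjusted p = 0.00013) and -0.38 ± 0.06 (adjusted p = 0.000284). Aurkc, the Aurora kinase of germ cells and early embryos, fell most in the class, with log2 fold changes of -1.31 ± 0.21 and -1.29 ± 0.21, from 50.4 to 81.7 CPM to 25.6 to 30.4 and 17.9 to 36.1 CPM. Cdca8 fell in both (-0.47 and -0.35), Aurkb in the Ttf1 knockout (-0.43, with -0.16 and no call in the other), and Incenp was not called (-0.24 and -0.30).

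Spindle checkpoint genes gave 3 lower and 1 higher of 5 in the Ttf1 knockout, and 3 lower and 0 higher in the Zfp622 knockout. Among all genes, 39.2% were called in the Ttf1 knockout (17.9% lower) and 29.1% in the Zfp622 knockout (13.5% lower). Bub1b (ENSMUSG00000040084, chr2:118598211-118641591) stood at 54.9, 62.8, 58.99 and 50.2 CPM in wild type, 30.9, 24.2, 28.5 and 35.2 CPM in the Ttf1 knockout and 41.8, 35.97, 40.2 and 33.6 CPM in the Zfp622 knockout. Bub1 (ENSMUSG00000027379, chr2:127801122-127831865), the kinase that recruits checkpoint proteins to kinetochores, stood at 106.02, 91.4, 84.0 and 91.4, 68.0, 46.9, 56.9 and 63.2 and 67.9, 64.0, 70.8 and 63.4 CPM in the same order. For both genes all knockout libraries were below wild type. Bub1b fell, with log2 fold changes of -0.93 ± 0.12 (edgeR adjusted p = 1.92e-05) and -0.58 ± 0.11 (adjusted p = 0.00145), and Bub1 fell, with -0.66 ± 0.10 (adjusted p = 0.000145) and -0.49 ± 0.10 (adjusted p = 0.00265). Bub3 fell too (-0.56 and -0.43). Ttk, the kinase at the head of the checkpoint, had 0.07 and 0.03 and was not called. Mad2l1 rose in the Ttf1 knockout (0.32; 0.21 and not called in the Zfp622 knockout), a call lost without Ttf1 knockout library 2 (adjusted p 0.0642).

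Centromere and kinetochore genes gave 5 lower and 1 higher of 8 in the Ttf1 knockout, where 39.2% of all genes were called (17.9% lower). In the Zfp622 knockout they gave 3 lower and 1 higher, where 29.1% of all genes were called (13.5% lower). Cenpa (ENSMUSG00000029177, chr5:30666777-30674830), the histone variant that marks centromeres, stood at 331, 297, 345 and 324 CPM in wild type, 253, 255, 259 and 266 CPM in the Ttf1 knockout and 259, 239, 267 and 235 CPM in the Zfp622 knockout. All knockout libraries were below wild type, with log2 fold changes of -0.33 ± 0.07 (edgeR adjusted p = 0.000988) and -0.37 ± 0.07 (adjusted p = 0.000618). Spc25 (ENSMUSG00000005233, chr2:69193895-69206194), a subunit of the Ndc80 complex, went the other way, at 60.7, 55.3, 61.5 and 52.0 CPM in wild type, 132, 131, 83.8 and 96.4 CPM in the Ttf1 knockout and 114, 117, 119 and 156 CPM in the Zfp622 knockout. Every knockout library exceeded every wild-type library, with log2 fold changes of 0.95 ± 0.14 (edgeR adjusted p = 0.000173) and 1.14 ± 0.14 (adjusted p = 9.77e-05).

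No other subunit of the Ndc80 complex was called higher. Nuf2 fell in both knockouts (-0.41 and -0.57), and its call in the Ttf1 knockout was lost without Ttf1 knockout library 1 or wild-type library 2 (adjusted p 0.0564 to 0.0653). Spc24, the partner of Spc25 in their dimer, fell in the Ttf1 knockout (-0.43) and had -0.28 without a call in the Zfp622 knockout, and Ndc80 itself had -0.06 and -0.15 without a call. In wild type Spc25 and Spc24 had crossed between the stages, Spc25 down and Spc24 up. Spc25 in knockout morulae, at means of 111 ± 24.5 and 127 ± 20.01 CPM, lay above the 57.4 ± 4.5 CPM of wild type. Cenpe, a kinetochore motor, fell in both (-0.34 and -0.47). Knl1, the scaffold that Bub proteins bind, fell in the Ttf1 knockout (-0.25), a call lost without Ttf1 knockout library 2 or wild-type library 1, 3 or 4 (adjusted p 0.056 to 0.0859). Cenpf, a large protein of the outer kinetochore, was not called (-0.38 and -0.15).

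**Figure D3:**
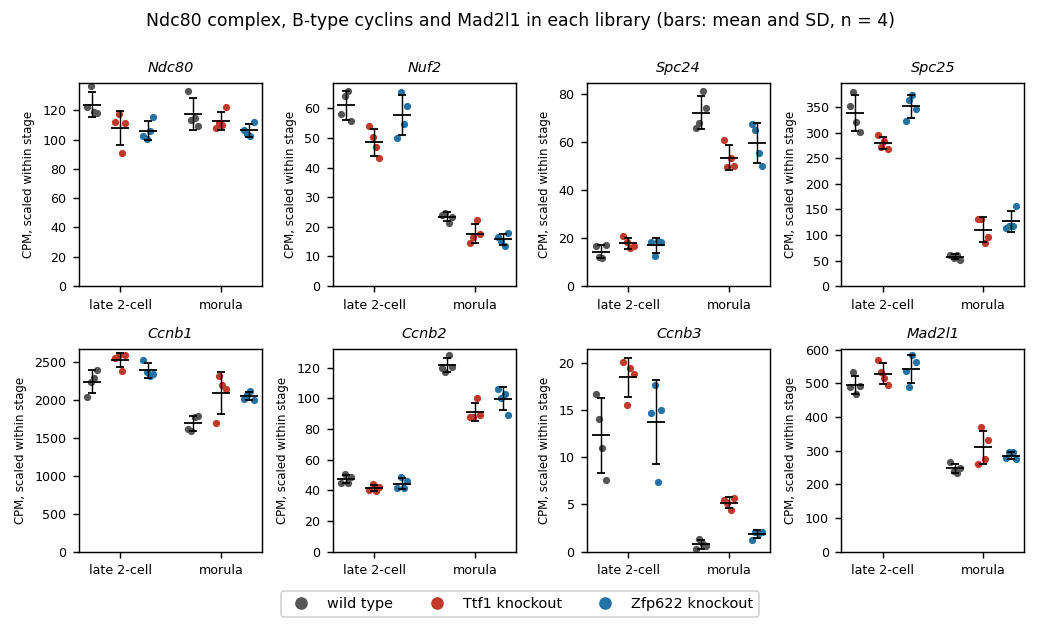
Level in each library (CPM, y axes, scaled within a stage, so heights are compared within a stage only) of the 4 Ndc80 complex subunits, the 3 B-type cyclins and Mad2l1, in wild type (grey), Ttf1 knockout (red) and Zfp622 knockout (blue), with bars for mean and SD of 4 libraries. At morula Spc25 and Ccnb1 are higher in knockouts while Nuf2, Spc24 and Ccnb2 have lower means.

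Of 7 genes of anaphase and cohesion, calls were 3 lower and 0 higher of 7 in the Ttf1 knockout, and 2 lower and 0 higher in the Zfp622 knockout. These shares, 42.9% and 28.6%, were near those of all genes (39.2% and 29.1%). Pttg1 (ENSMUSG00000020415, chr11:43420250-43426251) stood at 263, 325, 243 and 285 CPM in wild type, 183, 162, 216 and 170.2 CPM in the Ttf1 knockout and 172, 197, 232 and 197 CPM in the Zfp622 knockout. Sgo1 (ENSMUSG00000023940, chr17:53674786-53689333), shugoshin, which shields centromeric cohesin, stood at 66.7, 67.9, 62.3 and 66.8, 41.6, 50.7, 47.4 and 53.3 and 56.9, 55.2, 62.5 and 52.6 CPM in the same order. Pttg1 lay below wild type in all 8 knockout libraries, and Sgo1 in all 4 of the Ttf1 knockout, with overlap in the Zfp622 knockout. Pttg1 fell, with log2 fold changes of -0.61 ± 0.11 (edgeR adjusted p = 0.000415) and -0.48 ± 0.11 (adjusted p = 0.00363). Sgo1 fell in the Ttf1 knockout, with a log2 fold change of -0.45 ± 0.09 (adjusted p = 0.000849) and had -0.21 ± 0.09 in the other (adjusted p = 0.0792, not called).

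Of the 2 activators of the anaphase promoting complex, Fzr1, which serves late mitosis and G1, fell in both knockouts (-1.03 ± 0.23 and -0.68 ± 0.23), and Cdc20, which serves anaphase, was not called (-0.13 ± 0.08 and -0.15 ± 0.08). The Fzr1 call in the Zfp622 knockout was lost without any of 5 libraries (wild type 2, 3 and 4 and Zfp622 knockout 2 and 4, adjusted p 0.0679 to 0.109). Ube2c (-0.12 and 0.08), Espl1 (-0.32 and -0.35, separase, which cuts cohesin) and Sgo2a (-0.12 and -0.17, the other shugoshin) were not called.

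Spindle motors and microtubule proteins gave 6 lower and 1 higher of 7 in the Ttf1 knockout, and 5 lower and 1 higher in the Zfp622 knockout. Their called shares were 100.0% and 85.7%, against 39.2% and 29.1% of all genes. Tpx2 (ENSMUSG00000027469, chr2:152847964-152895321) stood at 223, 226, 225 and 219.7 CPM in wild type, 148, 136, 149 and 167 CPM in the Ttf1 knockout and 173, 169, 169 and 150.3 CPM in the Zfp622 knockout. Hmmr (ENSMUSG00000020330, chr11:40701395-40733422), which helps place the spindle, stood at 96.9, 121, 114 and 104.97, 53.7, 52.6, 58.1 and 77.9 and 80.2, 64.5, 74.5 and 57.9 CPM in the same order. Neither had a knockout library within the wild-type range. Tpx2 fell, with log2 fold changes of -0.58 ± 0.07 (edgeR adjusted p = 2.11e-05) and -0.43 ± 0.07 (adjusted p = 0.000392), and Hmmr fell, with -0.85 ± 0.13 (adjusted p = 0.000113) and -0.65 ± 0.13 (adjusted p = 0.00143).

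Kif11, the motor that parts spindle poles (-0.34 and -0.34), and Kif2c, a microtubule depolymerase (-0.75 and -0.59), fell in both as well. Ckap5 also fell in both (-0.59 and -0.32), though its Zfp622 knockout call was lost without any of 7 libraries, all but Zfp622 knockout 4 (adjusted p 0.052 to 0.0993). Nusap1, which bundles microtubules, fell in the Ttf1 knockout (-0.58) and had -0.28 without a call in the other. Ckap2, a spindle protein bound to microtubules, rose in both (0.46 ± 0.08 and 0.31 ± 0.08), from 78.7 to 91.9 CPM in wild type to 108.02 to 121 and 93.6 to 119 CPM, without overlap.

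**Figure D4:**
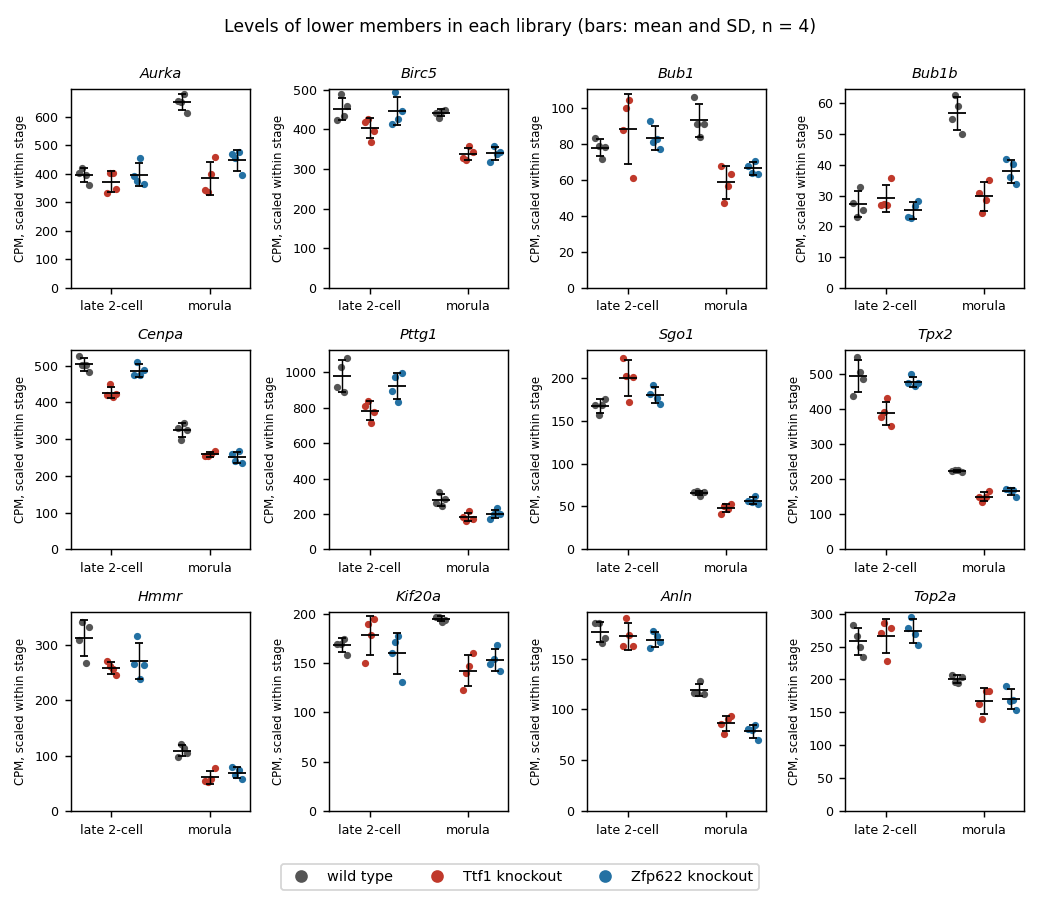
Level in each library (CPM, y axes, scaled within a stage, so heights are compared within a stage only) of 12 genes that fell in Ttf1 knockout morulae, in wild type (grey), Ttf1 knockout (red) and Zfp622 knockout (blue), with bars for mean and SD of 4 libraries. At L2C the groups overlap for most of them, and at morula wild type lies above both knockouts except for 1 overlap, Sgo1 in the Zfp622 knockout.

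Cytokinesis genes gave 2 lower and 0 higher of 6 in the Ttf1 knockout (33.3%, against 39.2% of all genes), and 4 lower and 0 higher in the Zfp622 knockout (66.7%, against 29.1%). Anln (ENSMUSG00000036777, chr9:22332012-22389188), anillin, which scaffolds the contractile ring, stood at 117, 116, 128 and 115 CPM in wild type, 85.3, 75.999, 90.4 and 93.1 CPM in the Ttf1 knockout and 80.4, 79.3, 85.0 and 69.5 CPM in the Zfp622 knockout. Kif20a (ENSMUSG00000003779), a motor of the central spindle, stood at 197, 197, 192 and 194, 122, 139.9, 147 and 160.1 and 149, 154, 169 and 142 CPM in the same order. All knockout libraries lay below wild type for both. Anln fell, with log2 fold changes of -0.47 ± 0.08 (edgeR adjusted p = 0.000396) and -0.60 ± 0.08 (adjusted p = 0.000114), and Kif20a fell, with -0.45 ± 0.08 (adjusted p = 0.000367) and -0.35 ± 0.08 (adjusted p = 0.0043).

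Kif23 and Racgap1, the partners in centralspindlin, fell in the Zfp622 knockout (-0.23 and -0.23) and were not called in the Ttf1 knockout (-0.11 and -0.13), and their difference between knockouts was not called either. Those calls were lost without wild type 1, 3 or 4 or Zfp622 knockout 1, 3 or 4 for Kif23 (adjusted p 0.0516 to 0.116) and without wild type 3 or 4 or Zfp622 knockout 1 or 4 for Racgap1 (adjusted p 0.0675 to 0.122). Ect2, which activates RhoA at the cell equator (0.13 and 0.05), and Prc1, which bundles midzone microtubules (0.15 and -0.08), were not called.

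The 2 genes of chromosome structure had small differences. Top2a (ENSMUSG00000020914, chr11:98992943-99024189), the topoisomerase that untangles sister chromatids, stood at 207, 196, 195 and 203 CPM in wild type, 163, 139.8, 182 and 182 CPM in the Ttf1 knockout and 189.7, 167, 169 and 153 CPM in the Zfp622 knockout. Mki67 (ENSMUSG00000031004, chr7:135689784-135716361) stood at 22.7, 24.9, 26.5 and 20.4, 15.5, 19.3, 21.1 and 22.8 and 18.9, 20.4, 19.96 and 18.4 CPM in the same order. Knockout libraries of Top2a were all below wild type, and those of Mki67 overlapped it. Top2a fell, with log2 fold changes of -0.27 ± 0.09 (edgeR adjusted p = 0.0217) and -0.24 ± 0.09 (adjusted p = 0.0447). Its calls were lost without Ttf1 knockout 2 or wild type 1 or 4 (adjusted p 0.0503 to 0.0738), and, in the Zfp622 knockout, without any of 7 libraries, all but Zfp622 knockout 1 (adjusted p 0.0689 to 0.128). Mki67 had -0.26 ± 0.12 (adjusted p = 0.102) and -0.28 ± 0.12 (adjusted p = 0.0962), both not called.

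Set directly against each other at morula, the knockouts differed for 1 member, Ccnb3, beside 0.229% of all genes. An unadjusted edgeR p under 0.05 was found for 9 members, beside 1959 of all 14865 genes. Ccnb3 was higher in the Ttf1 knockout by log2 1.47 ± 0.30 (edgeR adjusted p = 0.0489), and its libraries did not overlap (3.29% of all genes were separated that way). The call was lost without any of 6 of the 8 libraries, and kept without Ttf1 knockout 1 or Zfp622 knockout 4 (adjusted p when lost 0.0858 to 0.162). It was lost as well in the fit without wild-type libraries 3 and 4. Members outside Ccnb3 had differences between -0.35 (Fzr1, near Bub1b at -0.35) and 0.23 (Prc1). Libraries did not overlap for Aurkb and Ckap5, lower in the Ttf1 knockout (2.89% of all genes), though neither passed the adjusted threshold (-0.27, adjusted p = 0.199, and -0.27, adjusted p = 0.3).

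The change in knockout effect between the stages was tested with all 24 libraries. The Ttf1 knockout effect was lower at morula than at L2C for 15 members and higher for 3, beside 21.2% of all 18864 genes called (8.65% lower and 12.5% higher). The Zfp622 knockout effect was lower for 14 and higher for 1, beside 10.7% of all genes (4.21% and 6.45%), and without the 3 wild-type libraries that carry a second index number 3 members in all were called there. In the Ttf1 knockout the differences were led by Aurkc (log2 -1.39 ± 0.22, edgeR adjusted p = 7.96e-05), Fzr1 (-1.37 ± 0.30, adjusted p = 0.00163) and Bub1b (-1.04 ± 0.19, adjusted p = 0.000206), and Ccnb3 (2.15 ± 0.42), Spc25 (1.22 ± 0.17) and Ckap2 (0.48 ± 0.12) went up. Bub1b at L2C stood at 27.2 ± 4.17 CPM in wild type and 29.1 ± 4.34 CPM in the Ttf1 knockout, and Aurkc at 103.5 ± 4.93 and 108.4 ± 12.3 CPM. In the Zfp622 knockout Spc25 went up (1.07 ± 0.17, adjusted p = 0.000175), and Aurkc (-1.27 ± 0.22), Nek2 (-0.59) and Anln (-0.55) were among those going down. Tpx2 (-0.24), Pttg1 (-0.30) and Nuf2 (-0.09) had no called difference between stages in the Ttf1 knockout.

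**Figure D5:**
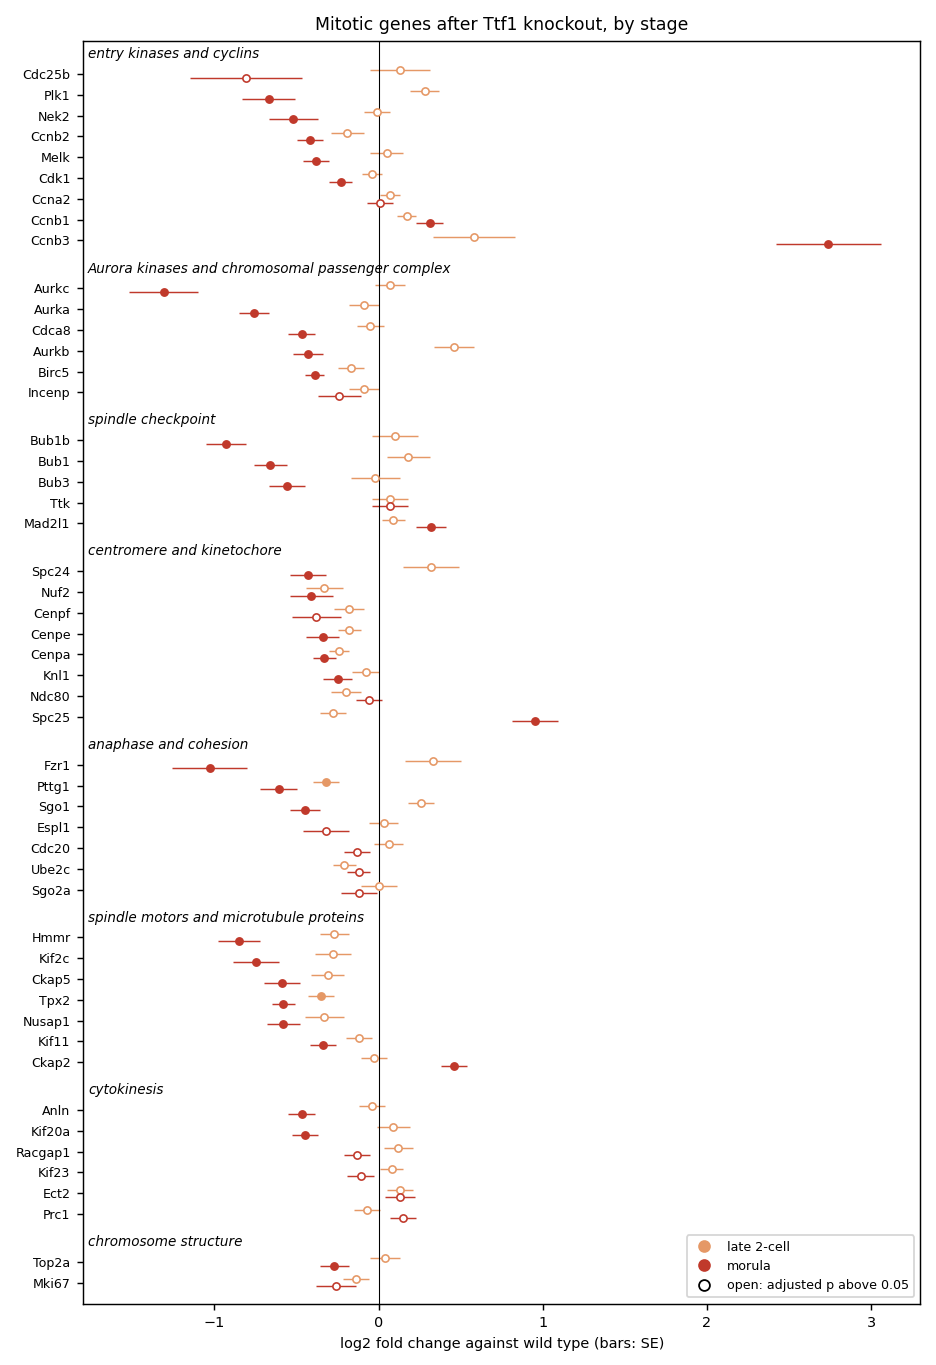
Log2 fold change of the Ttf1 knockout against wild type (x axis) at L2C (orange) and at morula (red) for each of the 50 genes (y axis, grouped by role), with bars for SE and open points above an adjusted p of 0.05. At L2C all but Tpx2 and Pttg1 are open and lie between -0.35 and 0.58, and at morula 35 are filled.

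Ttf1 lies on chromosome 2, and genes of that chromosome distal to it had a lower median in Ttf1 knockout morulae (log2 fold change -0.165 over 951 genes, 29.4% of them called lower, against 0.051 and 17.1% over the 13914 other genes). In Zfp622 knockout morulae the medians were -0.022 and 0.03, with 14.8% and 13.4% called lower. Of the 50 members 10 lie there: Aurka, Bub1, Bub1b, Cdc25b, Tpx2, Spc25, Knl1, Ube2c, Nusap1 and Ckap5. In the Ttf1 knockout 7 of them fell and 1 rose, with a median of -0.59, and of the 40 others 23 fell and 4 rose, with a median of -0.34. At L2C the medians were -0.15 and 0.0 for the members, and -0.106 and 0.009 for all genes. In the Zfp622 knockout at morula 5 of the 10 fell and 1 rose, with a median of -0.38, and 20 of the 40 fell and 3 rose, with a median of -0.29.

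Further mitotic genes outside the 50 were counted from 6 lists, to be read against the 39.2% of all genes called in Ttf1 knockout morulae and the 29.1% in Zfp622 knockout morulae. Of other kinetochore, centromere and checkpoint genes 17 fell and 4 rose of 33 in the Ttf1 knockout (63.6% called, median -0.34), and 14 and 5 in the Zfp622 knockout (57.6% called, median -0.21). They include Zwint, a partner of Knl1 (log2 -0.65 and -0.49), and Hjurp, the Cenpa chaperone (-0.38 and -0.46). All 3 subunits of the Ska complex, which holds kinetochores on microtubules, fell in both: Ska1 (-0.65 and -0.45), Ska2 (-0.52 and -0.53) and Ska3 (-0.51 and -0.33). At L2C Cenpi (0.52 ± 0.11, edgeR adjusted p = 0.0194) and Mis18a (0.37 ± 0.09, adjusted p = 0.044) rose in the Ttf1 knockout.

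Of cohesin and condensin genes 8 fell and 2 rose of 19 in the Ttf1 knockout (52.6% called, median -0.16), and 7 and 1 in the Zfp622 knockout (42.1% called, median -0.12). Cdca5, sororin, which keeps cohesin on chromatin, fell (-0.71 and -0.53), and Esco2, the acetyltransferase of cohesin, rose (0.49 and 0.40). Of anaphase promoting complex subunits 4 fell and 3 rose of 15 in the Ttf1 knockout (46.7% called, median 0.10), and 4 and 1 in the Zfp622 knockout (33.3% called, median 0.10), near the shares of all genes, with Cdc16 lower (-0.45 and -0.35) and Anapc16 higher (0.49 and 0.32). Of other spindle, centrosome and cytokinesis genes 9 fell and 4 rose of 33 in the Ttf1 knockout (39.4% called, median -0.14), and 5 and 5 in the Zfp622 knockout (30.3% called, median -0.14), also near the shares of all genes. Tacc3, a spindle protein and substrate of Aurka, fell (-0.75 and -0.59), as did the motor Kif18a (-0.49 and -0.26), and Psrc1 rose (0.74 and 0.67). Of other regulators of mitotic entry and exit 5 fell and 2 rose of 16 in the Ttf1 knockout (43.8% called, near the share of all genes, median 0.08), and 5 and 2 in the Zfp622 knockout (43.8% called, median 0.08). Fbxo5, an inhibitor of the anaphase promoting complex, fell (-0.87 and -0.61), and Gtse1, a microtubule protein of G2, rose (0.96 and 0.86).

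Transcription factors of the G2 to M programme were mixed: 4 fell and 7 rose of 24 in the Ttf1 knockout (45.8% called, median -0.06), and 3 and 4 in the Zfp622 knockout (29.2% called, median -0.05), near the shares of all genes. Nfya (0.48 and 0.51) and Nfyb (1.49 and 1.23), subunits of the trimer NF-Y that binds CCAAT boxes, rose. Its other subunit, Nfyc, named here after its values were seen, was not called (-0.01 and -0.27). Nfyb ran from 95.2 to 128 CPM in wild-type morulae to 275 to 320.1 CPM in the Ttf1 knockout and 200.4 to 297 CPM in the Zfp622 knockout. Mybl2, B-Myb, which acts with the MuvB complex on mitotic promoters, fell (-0.72 and -0.47), as did Lin37, a subunit of MuvB (-0.82 and -0.66). Mybl1, the Myb factor of the germ line, rose from 1.1 to 1.7 CPM to 10.7 to 22.2 and 10.6 to 20.8 CPM (log2 3.48 ± 0.29 and 3.23 ± 0.29, edgeR adjusted p = 1.83e-06 and 1.2e-05). Rb1, the retinoblastoma protein, rose from 0.343 to 0.848 CPM to 3.33 to 9.15 and 3.32 to 9.57 CPM (log2 3.56 ± 0.45 and 3.22 ± 0.46). The low wild-type levels of Rb1 limit the precision of its fold changes. Libraries of either knockout all lay above wild type for Nfyb, Mybl1 and Rb1. Tfdp1, the dimer partner of E2F, fell at L2C in the Ttf1 knockout (-0.40 ± 0.09, edgeR adjusted p = 0.0339).

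Promoters of mitotic genes often hold a CHR element, bound by MuvB complexes, with CCAAT boxes upstream. In the RefSeq promoter table (GRCm38.p6), 44 of 50 members were matched, and the 250 bases before the annotated start were searched on both strands for TTTGAA and TTTAAA (letters of the CHR) and CCAAT. The CCAAT box was found for 31 members (70.5%), against 37.5% of 27025 genes with a promoter and 41.2% of the 9928 tested at morula. TTTGAA or TTTAAA was found for 20 (45.5%), against 28.1% and 21.0%. Both kinds were found for 17 (38.6%), against 10.1% and 8.14%. By their change in Ttf1 knockout morulae, CCAAT was in 16 of 26 that fell, 3 of 5 that rose and 12 of 13 not called, and TTTGAA or TTTAAA in 10, 3 and 7 of them. The 120 bases before the start are given for genes that fell (Aurka, Hmmr, Ckap5), rose (Ccnb1, Spc25, Ckap2) and were not called (Cdc20), to show where the letters lie in examples of each. Capitals mark these letters. On the complement strand the CCAAT box reads ATTGG. The hexamer with GAA at its end then reads TTCAAA, and the other reads the same on both strands. A match describes letters, not a site in use. All genes shown hold a CCAAT box, so they do not stand for members without one. Such members include Ccnb3 and Mad2l1, which rose, and Pttg1, Sgo1 and Anln, which fell in Ttf1 knockout morulae.
Aurka promoter, chr2:172370571-172370690, minus strand: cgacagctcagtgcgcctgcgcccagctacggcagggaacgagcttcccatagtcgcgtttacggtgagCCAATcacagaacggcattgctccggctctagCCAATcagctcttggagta
Hmmr promoter, chr11:40733438-40733557, minus strand: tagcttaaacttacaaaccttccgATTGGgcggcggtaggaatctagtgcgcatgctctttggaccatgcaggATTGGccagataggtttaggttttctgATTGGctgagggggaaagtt
Ckap5 promoter, chr2:91526642-91526761, plus strand: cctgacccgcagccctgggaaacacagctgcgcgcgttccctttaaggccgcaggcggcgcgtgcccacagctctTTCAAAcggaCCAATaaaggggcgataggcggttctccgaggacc
Ccnb1 promoter, chr13:100786487-100786606, minus strand: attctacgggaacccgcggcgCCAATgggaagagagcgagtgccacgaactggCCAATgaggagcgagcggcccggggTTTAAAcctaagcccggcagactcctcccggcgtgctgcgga
Spc25 promoter, chr2:69206214-69206333, minus strand: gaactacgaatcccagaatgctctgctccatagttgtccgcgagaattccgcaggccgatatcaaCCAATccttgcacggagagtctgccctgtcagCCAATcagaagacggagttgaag
Ckap2 promoter, chr8:22185820-22185939, minus strand: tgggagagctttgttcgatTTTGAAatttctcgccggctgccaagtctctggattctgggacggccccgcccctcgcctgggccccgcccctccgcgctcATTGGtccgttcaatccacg
Cdc20 promoter, chr4:118437344-118437463, minus strand: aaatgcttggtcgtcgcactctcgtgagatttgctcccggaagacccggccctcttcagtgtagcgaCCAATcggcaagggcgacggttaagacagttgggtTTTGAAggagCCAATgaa
Aurka, Hmmr and Spc25 hold only CCAAT boxes in these windows. Ckap5, Ccnb1, Ckap2 and Cdc20 hold a CHR-like hexamer and at least 1 CCAAT box. A CCAAT box lies upstream of the hexamer in Ccnb1 and Cdc20, and downstream of it in Ckap5 and Ckap2. Of these genes, Ckap5 fell (-0.59), Ccnb1 and Ckap2 rose (0.31 and 0.46) and Cdc20 was not called (-0.13) in Ttf1 knockout morulae.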

How the data were processed

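Count values are read pairs per gene as deposited by the authors. Per the file headers they were assigned to exons with featureCounts 2.0.1 (paired, no strand option, no multiply mapped reads) on Ensembl release 99, GRCm38, and per the submitters' processing notes aligned with HISAT2 2.2.1. Symbols matched 55144 of 55471 gene identifiers. Genes with near-identical copies lose the reads they share.

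Groups were taken from sample titles, because genotype and strain labels count upward from sample to sample. Lane and index numbers come from alignment names in the file headers. No 2 libraries held the same values.

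Each stage was fitted with its 12 libraries, and contrasts across stages with all 24, in edgeR 4.0.16 (R 4.3.3): filterByExpr, TMM scaling, robust quasi-likelihood fits and tests. P-values were adjusted by Benjamini and Hochberg's method over all genes tested and called at 0.05 or below, with no fold threshold. Log2 CPM used a prior count of 2. All 50 members passed the filter at both stages. Errors of levels are SD, and errors of fold changes SE. The procedure was tested on simulated data. Promoter letters were read from RefSeq sequences. Counts limit precision for the lowest genes.

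Members, lists and tests were chosen with earlier results of these data known. Every library is printed for the 2 members of a role with the smallest p in Ttf1 knockout morulae, the 3 smallest in Zfp622 knockout morulae and members called at L2C. For Ccnb1 they were added after its values were seen. Genes of the other lists could be named when among the 2 smallest p of their list in Ttf1 knockout morulae, called at L2C or called in Zfp622 knockout morulae. Alternatives were DESeq2 1.42.0, its size factors, no filter, other sets of libraries in the fit, replicate number as a block, each library left out, and a fit without the wild-type libraries that carry a second index number.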

Additional observations from a re-analysis of the deposited data

Results flagged for a closer look

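In 19 of 300 combinations of a member and a group of 4 libraries, 1 library lay far from the other 3 by Dixon's test, which chance gives in about 1 of 20 groups. Among wild-type L2C libraries, they were Kif23 in library 3 (240.3 CPM, the others 258 to 261), Ect2 in library 1 (171 CPM, the others 181 to 182) and Ckap5 in library 3 (168 CPM, the others 184 to 187). Among Ttf1 knockout L2C libraries, they were Bub1b in library 4 (35.6 CPM, the others 26.8 to 27.3), Kif11 in library 3 (185 CPM, the others 203 to 205), Kif23 in library 4 (279 CPM, the others 266 to 267) and Fzr1 in library 3 (10.3 CPM, the others 13.0 to 13.4). Among Zfp622 knockout L2C libraries, they were Incenp in library 1 (82.1 CPM, the others 93.5 to 94.8), Spc24 in library 2 (12.3 CPM, the others 18.2 to 18.6) and Prc1 in library 2 (612 CPM, the others 494 to 505). Among wild-type morula libraries, they were Ttk in library 1 (35.9 CPM, the others 32.9 to 33.4) and Anln in library 3 (128 CPM, the others 115 to 117). Among Ttf1 knockout morula libraries, they were Ccnb2 in library 3 (99.9 CPM, the others 87.5 to 89.1) and Ckap5 in library 2 (21.5 CPM, the others 29.5 to 30.3). Among Zfp622 knockout morula libraries, they were Ccnb3 in library 1 (1.27 CPM, the others 2.02 to 2.08), Cenpf in library 2 (32.1 CPM, the others 41.9 to 42.8), Tpx2 in library 4 (150.3 CPM, the others 169 to 173), Spc25 in library 4 (156 CPM, the others 114 to 119) and Ect2 in library 2 (165 CPM, the others 131 to 133). No explanation was tested.

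The knockout effect differed between the stages for 18 members in the Ttf1 knockout and 15 in the Zfp622 knockout, by the interaction term of edgeR (adjusted p of at most 0.05). In the Ttf1 knockout the differences, as log2 at morula minus log2 at L2C, were Aurka (-0.68), Aurkb (-0.90), Aurkc (-1.39), Bub1 (-0.85), Bub1b (-1.04), Plk1 (-0.97), Ccnb3 (2.15), Kif20a (-0.55), Cdca8 (-0.44), Nek2 (-0.52), Spc24 (-0.76), Spc25 (1.22), Anln (-0.44), Fzr1 (-1.37), Sgo1 (-0.72), Ckap2 (0.48), Hmmr (-0.59) and Melk (-0.44). In the Zfp622 knockout they were Aurka (-0.56), Aurkb (-0.53), Aurkc (-1.27), Bub1 (-0.59), Plk1 (-0.59), Cenpa (-0.34), Cenpe (-0.39), Tpx2 (-0.40), Birc5 (-0.37), Cdca8 (-0.35), Nek2 (-0.59), Spc25 (1.07), Anln (-0.55), Fzr1 (-0.95) and Melk (-0.51). The call of Nek2 in the Ttf1 knockout was lost without any of 4 libraries (adjusted p 0.0505 to 0.0609). In the Zfp622 knockout 7 calls were lost when 1 library was left out: Cdca8 without any of 10 (adjusted p 0.0529 to 0.0996), Fzr1 of 9 (0.0574 to 0.0973), Plk1 of 8 (0.0554 to 0.0997), Bub1 of 5 (0.051 to 0.0676), Cenpe of 4 (0.0508 to 0.0716), Aurkb of 3 (0.0507 to 0.059) and Cenpa without wild-type morula library 3 (0.0534). Both sets of differences use the same 8 wild-type libraries.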

How the results depend on the processing

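No called member changed sign under any setting. Without wild-type L2C library 3, however, the Ttf1 knockout at L2C had 0 lower and 1 higher in place of 2 lower, and the median of members in the Zfp622 knockout at L2C went from -0.03 to 0.01 without that library or Zfp622 knockout library 1. Counts of members called moved by more than 1.5 times under these settings. For the Ttf1 knockout at L2C (2 called), DESeq2 called 5, no filter gave 4 and omission of the wild-type library with a second index number 0. Between the knockouts at L2C (0 called), DESeq2 called 1. In Zfp622 knockout morulae (29 called), omission of the 2 wild-type libraries that carry a second index number gave 19, a fit with fewer samples. Between the knockouts at morula (1 called, Ccnb3), the replicate block gave 0 and that omission 0. For the Zfp622 effect between stages (15 called), the omission gave 3. Leaving out each library gave 0 to 1 called for Ttf1 at L2C, 0 to 0 for Zfp622 and between knockouts at L2C, 31 to 39 and 24 to 28 for Ttf1 and Zfp622 at morula, 0 to 1 between knockouts at morula, 38 to 40 between wild-type stages, and 17 to 21 and 10 to 18 for the Ttf1 and Zfp622 effects between stages.

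Replicate numbers did not pair the libraries: deviations of libraries with the same number correlated at -0.198 to 0.104 over 24 pairs. With the replicate block, 31 members fell and 5 rose in Ttf1 knockout morulae, and 22 and 4 in Zfp622 knockout morulae. The cause of these shifts was not tested. Of the members, Ccnb3, Fzr1 and Cdc25b had the fewest read pairs, which limits what their values can show.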
